A study of Mus musculus with 36 samples.

Results

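The variable (V) segments of the immunoglobulin loci were examined in 3 mouse lymphoma lines, AH47A, 287 and 621. All genes of the count table whose symbol starts with Ighv (heavy chain), Igkv (kappa light chain) or Iglv (lambda light chain) were taken where their raw counts summed to at least 10 over 36 libraries. This gave 89 segments among 226 V segments listed and 27179 genes in all. They are 16 of 120 Ighv, 70 of 103 Igkv and 3 of 3 Iglv segments. Of the other V segments, 52 had 1 to 9 counts and 85 had none. Ighv1-53, Igkv6-25 and Igkv8-24 lay just inside the limit with 11 counts each, while Ighv2-3, Igkv17-121 and Igkv6-29 lay just outside with 9. The members were thus selected on their summed counts, so their levels are a description and the choice itself carries no test.

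All lines come from Em-myc mice, in which a Myc transgene under an immunoglobulin enhancer gives B cell lymphomas. Each line carried 1 of 5 mutant TRP53 proteins (G280, I192S, R246Q, R270H, V170M) or a negative control, and was measured without and with nutlin-3a. Nutlin-3a blocks the binding of MDM2 to p53. It was given at 5 µM for 12 hours together with 25 µM QVD-OPH, a caspase inhibitor. The labels do not state whether the untreated cells had QVD-OPH too, so effects of the drug and of the inhibitor cannot be told apart. There were 6 groups of line and treatment with 6 libraries each, and the libraries of a group differed in construct. The labels name no repeat of a construct within a line, and they do not say whether a line carrying a construct is 1 clone.

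A developing B cell cuts and joins 1 V segment to a D and a J segment at its heavy chain locus and 1 V to 1 J segment at a light chain locus, a process carried out by the RAG1 and RAG2 recombinase. The joined V segment is then transcribed from its own promoter near the enhancers of the constant region, whereas unjoined segments give little RNA. A clonal B cell tumour is therefore known for high RNA of few V segments, which act as a tag of the clone. Many mouse Igkv segments lie in the orientation opposite to Igkc and join by inversion, which keeps the DNA between the joined ends on the chromosome.

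The libraries held 5404113 to 10718302 counts. Levels are given as CPM, the count scaled to the effective (TMM) library size and given per 1000000 counts. Trp53 counts, which can include the construct, were 206 to 291 CPM in the 3 untreated control libraries and 693 to 2587 CPM in the 15 untreated mutant libraries. After nutlin the ranges met, at 261 to 445.9 CPM in the control and 445.8 to 2024 CPM in the mutant libraries. Cdkn1a, the p53 target that arrests the cell cycle, was at most 6.39 CPM in every untreated library and at least 104 CPM in every nutlin library. All 6 B lineage markers were detected in every line, with a summed level of 834 to 1461 CPM. Of these, Ms4a1 had only 19 counts in AH47A and 45 in 287. The 6 plasma cell markers summed to 327 to 965 CPM, with Jchain, which links secreted antibodies, at most 0.398 CPM. Irf4 made up most of that sum. In 287 it had 58412 counts, against 3859 for Sdc1, 3816 for Xbp1 and 995 for Derl3. Markers of T cells summed to at most 21.8 CPM, of myeloid cells to at most 57.5 CPM, and of erythroid cells and fibroblasts to at most 4.32 CPM and 2.87 CPM. Cd4 was at 0 in all libraries. In these bulk samples, fewer cells using a segment and less RNA of it per cell cannot be told apart.

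The leading segments of the lines are shown first, because they held most V counts of each line. Igkv19-93 was high in both 287 and 621, and no joined sequence was read, so identity of a clone was not tested. The sequences are the last exons of these genes in GENCODE M21, or the final 300 bases of longer ones, 5′ to 3′ on the coding strand, and the coordinates are the 1-based RefSeq gene spans in GRCm38.p6, whose lengths differ from those of the exons. They are reference sequences and not those of the lines, which may hold other alleles or mutations. Capitals run from the codon of the conserved cysteine that ends framework 3 to the end of the exon, the end at which joining takes place.
Ighv5-2, heavy chain, leading in AH47A, chr12:113578504-113578990, minus strand: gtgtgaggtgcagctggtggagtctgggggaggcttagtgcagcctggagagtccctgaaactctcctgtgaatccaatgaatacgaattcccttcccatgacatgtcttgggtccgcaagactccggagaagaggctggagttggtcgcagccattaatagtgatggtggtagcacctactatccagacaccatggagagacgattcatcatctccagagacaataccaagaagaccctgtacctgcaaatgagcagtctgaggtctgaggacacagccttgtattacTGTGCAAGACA
Ighv2-6, heavy chain, leading in 287, chr12:113716672-113716962, minus strand: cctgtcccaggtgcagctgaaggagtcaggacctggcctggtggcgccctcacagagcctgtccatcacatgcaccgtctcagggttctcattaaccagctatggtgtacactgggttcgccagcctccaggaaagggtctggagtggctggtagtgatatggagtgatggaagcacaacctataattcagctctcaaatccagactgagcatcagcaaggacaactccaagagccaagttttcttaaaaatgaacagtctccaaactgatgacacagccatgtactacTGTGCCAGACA
Ighv10-3, heavy chain, leading in 621, chr12:114523441-114523887, minus strand: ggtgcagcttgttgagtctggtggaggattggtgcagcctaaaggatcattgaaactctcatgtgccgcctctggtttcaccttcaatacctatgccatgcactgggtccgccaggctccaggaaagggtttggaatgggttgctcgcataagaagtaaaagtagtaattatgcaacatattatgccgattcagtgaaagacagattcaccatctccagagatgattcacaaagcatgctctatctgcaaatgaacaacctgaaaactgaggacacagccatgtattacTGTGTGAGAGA
Iglv1, lambda chain, leading in AH47A, chr16:19085017-19085460, minus strand: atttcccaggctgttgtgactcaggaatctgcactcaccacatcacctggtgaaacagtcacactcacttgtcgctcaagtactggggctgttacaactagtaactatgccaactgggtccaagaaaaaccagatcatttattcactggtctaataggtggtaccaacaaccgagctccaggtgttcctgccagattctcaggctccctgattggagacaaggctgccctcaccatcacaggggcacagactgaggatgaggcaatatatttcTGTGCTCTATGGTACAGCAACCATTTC
Igkv10-96, kappa chain, leading in 287, chr6:68631965-68632430, minus strand: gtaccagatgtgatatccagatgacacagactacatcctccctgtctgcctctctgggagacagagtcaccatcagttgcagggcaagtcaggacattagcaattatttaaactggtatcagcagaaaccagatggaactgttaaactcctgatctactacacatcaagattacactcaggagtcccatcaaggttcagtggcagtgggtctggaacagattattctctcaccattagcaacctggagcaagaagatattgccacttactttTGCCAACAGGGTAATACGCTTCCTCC
Igkv19-93, kappa chain, leading in 621 and following Igkv10-96 in 287, chr6:68736297-68736764, minus strand: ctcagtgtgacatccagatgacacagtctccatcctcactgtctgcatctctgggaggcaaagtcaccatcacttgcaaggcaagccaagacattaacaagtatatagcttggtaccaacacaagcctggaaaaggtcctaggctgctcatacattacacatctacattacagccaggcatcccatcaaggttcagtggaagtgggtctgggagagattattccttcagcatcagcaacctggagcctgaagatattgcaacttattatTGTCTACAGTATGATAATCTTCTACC

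The 3 heavy chain leaders were 60.5% to 71.6% identical to each other, and no stretch of 50 bases was shared between any pair of them. Stretches of 50 bases were compared because the labels state no read length. Ighv5-2, Igkv19-93 and Igkv1-88 shared no such stretch with any other of the 346 annotated V genes searched, and 72 of the 89 segments shared at least 1. Counts of segments with close relatives are uncertain to that extent. The relatives that matter below are shown next, with capitals at the bases that differ from the segment named.
Ighv2-5, chr12:113685482-113685774, minus strand, against Ighv2-6: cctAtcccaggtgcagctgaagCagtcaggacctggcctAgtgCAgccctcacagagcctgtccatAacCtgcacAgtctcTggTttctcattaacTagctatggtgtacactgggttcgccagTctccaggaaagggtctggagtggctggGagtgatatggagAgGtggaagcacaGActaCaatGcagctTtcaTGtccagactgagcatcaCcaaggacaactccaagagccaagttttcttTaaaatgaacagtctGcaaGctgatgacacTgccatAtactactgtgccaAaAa
Ighv2-4, chr12:113653291-113653583, minus strand, against Ighv2-5: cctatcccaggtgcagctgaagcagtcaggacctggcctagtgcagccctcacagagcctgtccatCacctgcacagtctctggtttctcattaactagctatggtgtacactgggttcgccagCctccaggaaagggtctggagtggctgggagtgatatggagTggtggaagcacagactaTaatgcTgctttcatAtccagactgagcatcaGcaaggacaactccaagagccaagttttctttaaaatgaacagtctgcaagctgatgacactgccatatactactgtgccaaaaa
Igkv10-94, chr6:68704508-68704978, minus strand, against Igkv10-96: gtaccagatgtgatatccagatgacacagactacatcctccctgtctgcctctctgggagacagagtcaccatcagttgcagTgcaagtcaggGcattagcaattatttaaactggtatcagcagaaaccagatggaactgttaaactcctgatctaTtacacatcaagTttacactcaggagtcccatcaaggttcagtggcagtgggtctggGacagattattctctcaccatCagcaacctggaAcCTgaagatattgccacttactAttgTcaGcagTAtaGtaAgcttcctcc
Ighv2-5 differs from Ighv2-6 at 30 of 304 bases, spread along the exon, and shares no stretch of 50 bases with it. Ighv2-4 differs from Ighv2-5 at 7 bases and shares 64 stretches. Igkv10-94 differs from Igkv10-96 at 16 of 298 bases and shares 47.

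In AH47A, RNA of Ighv5-2 and Iglv1 stood out. Ighv5-2 held 99.6% of the 19230 Ighv counts of the line. Its level was 196 to 226 CPM in the 6 untreated libraries, with a median of 206 CPM, and 185 to 216 CPM with a median of 201 CPM after nutlin. These groups overlapped. The next segments, Ighv1-19 and Ighv5-17, had 22 and 20 counts over the 12 libraries. Iglv1 held 96.0% of 19891 Iglv counts. It was at 169 to 323 CPM with a median of 224 CPM untreated, and at 132 to 257 CPM with a median of 158 CPM after nutlin. Kappa segments summed to only 1850 counts, led by Igkv9-124 with 403, Igkv3-2 with 289 and Igkv1-88 with 208. Igkc, the kappa constant region, was at 324 ± 14.9 CPM (SD, n = 6) in untreated AH47A. Iglc1, a lambda constant region to which Iglv1 can be joined, was at 366 ± 77.9 CPM.

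In 287, Ighv2-6 and a pair of kappa segments led. Ighv2-6 held 81.4% of 37545 Ighv counts, Ighv2-5 15.3% and Ighv2-4 1.45%. Igkv10-96 held 57.6% of 83585 Igkv counts, Igkv19-93 27.2% and Igkv10-94 8.56%. Untreated, Igkv10-96 was at 508 to 646 CPM with a median of 552 CPM, and Igkv19-93 at 169 to 238 CPM with a median of 188 CPM. They are 79.8% identical and share no stretch of 50 bases. Lambda segments summed to 1245 counts, of which Iglv1 held 685 and Iglv3 551.

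In 621, Ighv10-3 held 99.3% of 21002 Ighv counts and Igkv19-93 held 88.5% of 56340 Igkv counts. Ighv10-3 was at 218 to 258 CPM with a median of 248 CPM in untreated libraries. Igkv19-93 was at 544 to 690 CPM with a median of 661 CPM, above all 6 untreated libraries of 287. The following kappa segments, Igkv8-27 and Igkv8-28, held 0.637% and 0.595%. Lambda segments summed to 1129 counts and were led by Iglv3, with 744, rather than Iglv1, with 379.

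Most leaders had few counts outside their lines. Ighv10-3 had 20863 counts in 621, 5 in 287 and 1 in AH47A, each summed over 12 libraries. Ighv5-2 had 9 counts in 287 and 29 in 621 against 19152 in AH47A. Igkv10-96 had 157 counts in 621 and 36 in AH47A against 48141 in 287. Igkv19-93 was high in both 287 and 621 and had 135 counts in AH47A. Iglv1 had 685 counts in 287 and 379 in 621 against 19104 in AH47A. Ordered by untreated level per kilobase of gene model, the leaders were Igkv19-93 in 621 (1863 CPM per kb), Igkv10-96 in 287 (1625), Ighv2-6 in 287 (975), Ighv10-3 in 621 (684), Iglv1 in AH47A (660), Ighv5-2 in AH47A (593) and Igkv19-93 in 287 (558). In this order the untreated libraries of Igkv19-93 in 621 and Igkv10-96 in 287 overlap, as do those of Ighv10-3 and Ighv5-2. The libraries of Iglv1, with a coefficient of variation of 26.7%, span the means of Ighv10-3 and Ighv5-2 beside it. Those of Igkv19-93 in 287 overlap Ighv5-2, Ighv10-3 and Iglv1, so the last 4 places are not separated.

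**Figure D1:**
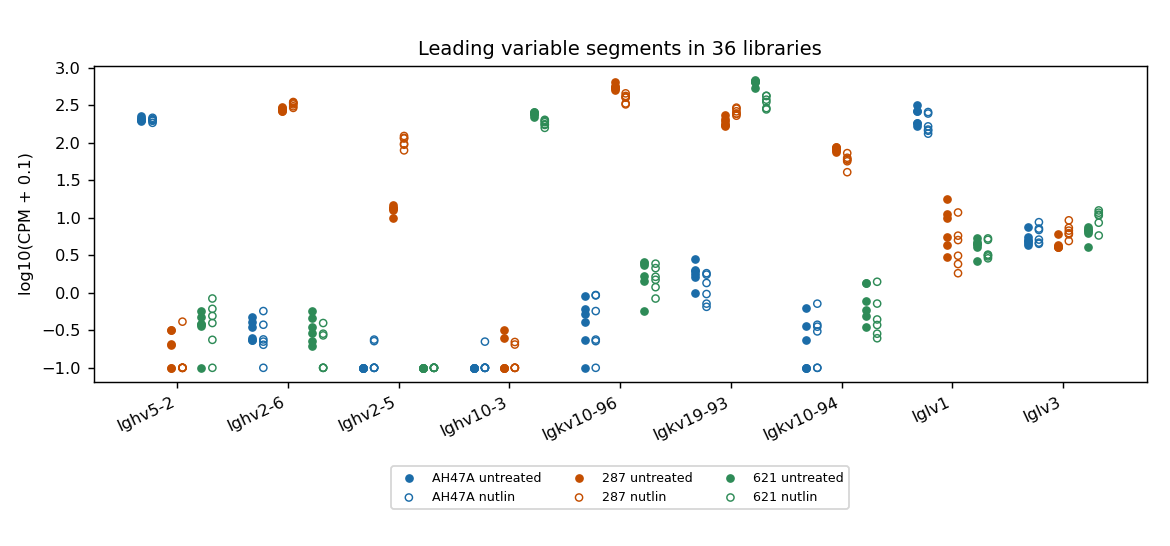
Level of 9 leading V segments in all 36 libraries, as log10(CPM + 0.1) on the vertical axis, with 1 point per library, colour for line, filled points untreated and open points nutlin. Each heavy chain leader is high in 1 line and near the lower end in the others, Igkv19-93 is high in both 287 and 621, and Ighv2-5 in 287 lies higher in all nutlin libraries (79.2 to 123 CPM) than untreated (9.8 to 14.7 CPM).

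Levels per kilobase were also set against the constant region of the same chain, as a percent of it. Ighv5-2 was at 42.1% ± 1.81 (SD, n = 6) of Ighm, the mu heavy chain constant region, in untreated AH47A and at 43.0% ± 1.29 after nutlin. Ighv2-6 was at 72.3% ± 2.82 of Ighm in untreated 287 and at 54.6% ± 2.77 after nutlin, without overlap. Ighv10-3 was at 29.9% ± 1.38 of Ighm in untreated 621 and at 22.5% ± 3.41 after nutlin, without overlap. Iglv1 was at 57.3% ± 4.21 and 56.9% ± 2.13 of Iglc1 in AH47A, a narrower spread than that of Iglv1 itself. Igkv19-93 was at 43.3% ± 1.75 of Igkc in untreated 621 and at 39.1% ± 2.11 after nutlin, with overlap. In 287, Igkv10-96 was at 28.1% ± 4.33 and 24.5% ± 2.77 of Igkc, with overlap. Igkv19-93 in 287 was at 9.54% ± 0.773 and 16.2% ± 1.28 of Igkc, without overlap. These ratios are descriptions of the libraries and were not tested.

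The minor kappa segments differed between the lines in where they lie. Igkv19-93 lies 1986 kb from Igkj1, the first kappa J segment, and 52 Igkv members lie between them, of which 47 are in the orientation opposite to Igkc. In 621, 49 of these 52 had at least 10 counts and together 5636 counts. In 287, 25 of 52 did, with 4264 counts, and in AH47A 8 of 52, with 902 counts. Of the 17 members on the far side of Igkv19-93, 9 in 621, 11 in 287 and 11 in AH47A reached 10 counts. Of these 17, 4 are in the opposite orientation, and Igkv19-93 was taken as the dividing point after the levels had been seen. Line 621 thus had low RNA of nearly all segments between Igkv19-93 and Igkj1, and AH47A of few.

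**Figure D2:**
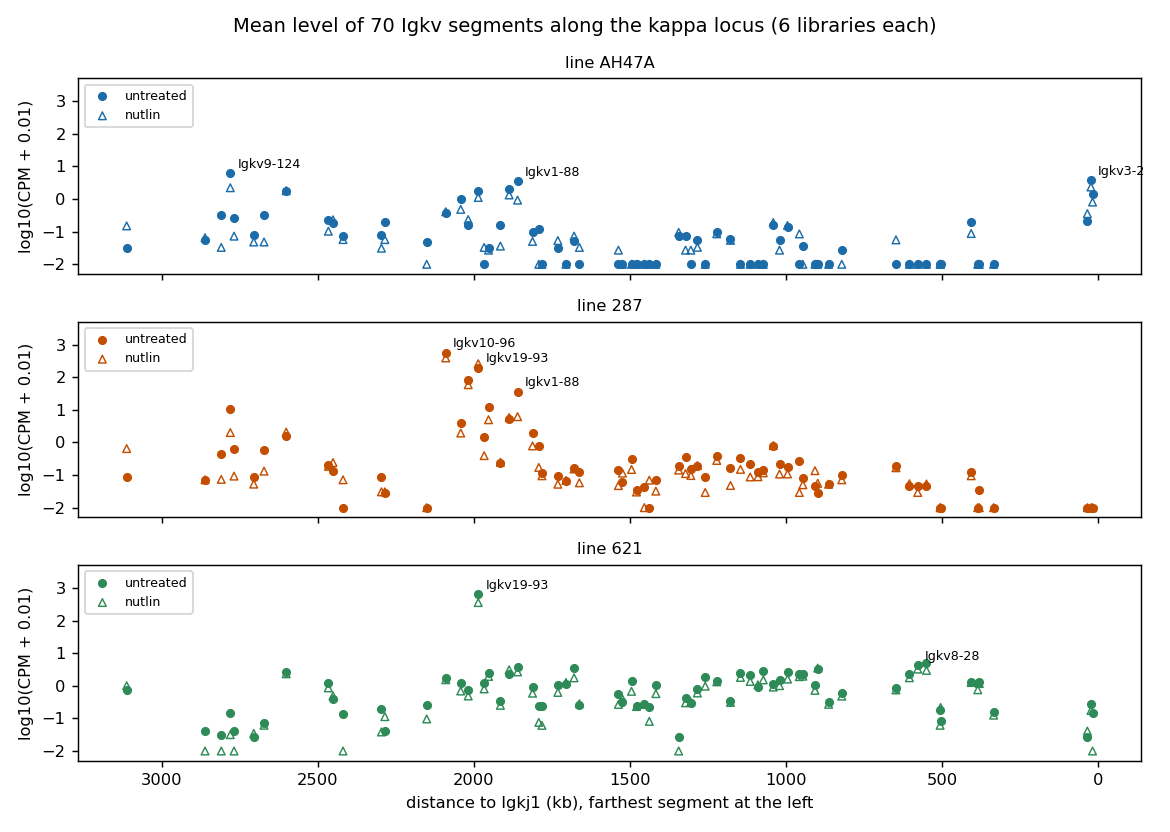
Mean level of the 70 Igkv segments over 6 libraries, as log10(CPM + 0.01), against distance to Igkj1 in kb, with 1 panel per line, filled circles untreated and open triangles nutlin. In 621 most segments on the J side of Igkv19-93 lie well above the floor of the axis, whereas in AH47A 8 of 52 reach 10 counts.

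Rag1, the recombinase gene, was at 145 to 346 CPM in untreated 621, 52.8 to 100.1 CPM in untreated 287 and at most 0.51 CPM in untreated AH47A. Rag2 was at 35.0 ± 7.51 CPM (SD, n = 6) in 621, 13.6 ± 3.98 CPM in 287 and 0.056 ± 0.0904 CPM in AH47A. The lines thus had the same order in recombinase RNA and in the number of J side segments detected. With 3 lines this was not tested.

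Heavy and kappa chain leaders varied little over the constructs, while Iglv1 and minor kappa segments of 621 varied more. A test of the construct effect over all lines, as the mean of both treatments, called 8 of the 43 members tested at an edgeR adjusted p under 0.05. Over all genes this comparison called 1.66%. The tested members are those that passed the filter on low counts, 7 Ighv, 33 Igkv and 3 Iglv. The filter asked for a minimum level in only 3 libraries, so a segment could pass through the constructs in which it was high. None of the 6 leaders in the sequences above was called (edgeR adjusted p from 0.399 to 0.957). The untreated coefficient of variation over the constructs was 5.20% for Ighv5-2 in AH47A, 4.65% for Ighv2-6 in 287, 5.85% for Ighv10-3 in 621, 8.47% for Igkv10-96 in 287 and 8.05% for Igkv19-93 in 621. It was 26.7% for Iglv1 in AH47A, which passed the construct test within that line. The count of 8 was 1 with DESeq2 and 3 without the control libraries or without the R246Q libraries. The construct by treatment effect called 0 members, with 0 at an unadjusted p under 0.05 in edgeR and 0 calls in DESeq2, against 0.0162% of all genes.

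Tested within each line, a comparison added after the data had been seen, the construct effect called 13 of 43 members in 621, where 2.26% of all genes were called. It called 4 in 287 (5.34% of all genes) and 1 in AH47A (9.29%). Members with few counts in a line could not be called there, and of those with at least 10 counts in the line 13 of 36, 4 of 30 and 1 of 19 were called, so the lines' counts are not compared. The 13 in 621 are kappa segments between Igkv19-93 and Igkj1, where 24 of the tested kappa segments with at least 10 counts in 621 lie, against 6 on the far side. They were Igkv4-86, Igkv4-60, Igkv4-57, Igkv4-55, Igkv4-53, Igkv5-48, Igkv5-45, Igkv5-43, Igkv8-30, Igkv8-28, Igkv8-27, Igkv8-21 and Igkv6-20. Those called in 287 were Igkv4-91, Igkv4-86, Igkv12-89 and Iglv1, and in AH47A Iglv1. Libraries of 1 construct within a line are 2, untreated and nutlin, so these tests rest on the agreement of that pair. The TRP53 protein and the culture that carried it cannot be told apart in them. A segment could also enter these tests through the constructs in which it was high. How far this adds to the calls was not tested.

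In 621, Igkv8-28 had 173 counts in the untreated R246Q library and 1 to 15 in the other 5. After nutlin it had 79 counts with R246Q and 1 to 14 with the others. The R246Q libraries stood apart in both treatments (edgeR adjusted p = 4.77e-07 for the construct effect within 621). Its neighbours had the same pattern. Igkv8-30 had 81 counts with R246Q against 0 to 14 untreated, and Igkv8-27 had 126 against 12 to 36. Summed over Igkv8-30, Igkv8-28 and Igkv8-27, which follow each other among the members over 55.2 kb (chr6:70117061-70172270), R246Q had 6.04% of the Igkv counts untreated and 6.91% after nutlin. The other constructs had 0.327% to 0.906% and 0.518% to 1.59%.

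Groups of adjacent segments were higher in other constructs of 621 as well, and these groups were picked after their values had been seen. With I192S, Igkv4-81, Igkv4-80 and Igkv4-79, adjacent over 52.7 kb (chr6:68990758-69043505), summed to 299 counts untreated and 113 after nutlin. The other constructs summed to 4 to 17 and 4 to 9 counts. Igkv4-79 alone had 189 counts with I192S and 1 to 10 with the others when untreated. These 3 segments did not pass the filter on low counts and were not tested. With V170M, Igkv8-21, Igkv6-20 and Igkv8-19, adjacent over 26.6 kb, summed to 130 counts untreated against 9 to 46, and to 71 after nutlin against 3 to 23. Igkv6-20 was also higher with R270H, with 30 counts untreated and 7 after nutlin, against 1 to 4 and 0 to 1 in the 4 constructs other than V170M and R270H. With the negative control, Igkv4-60 had 52 counts against 3 to 14 and Igkv4-58 had 36 against 4 to 10 when untreated. The I192S, R246Q and control groups each hold members of 1 family, some of which share stretches of 50 bases, and the V170M group holds members of the Igkv8 and Igkv6 families. Igkv6-20 shared stretches of 50 bases only with Igkv6-29, which had 9 counts in all.

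The same construct was highest before and after nutlin for 27 of the 38 minor Igkv segments with at least 50 counts in 621. The share of all genes with such a recurrence was not computed. Over all genes tested, deviations from the group means correlated best with those of the same construct in 16 of 18 pairs. Libraries of a construct thus resembled each other over all genes too, by a measure other than the recurrence of the highest construct. Whether that recurrence is particular to these segments was not tested. Of 12 segments whose highest untreated construct exceeded 4 times the median, 11 had the same construct highest after nutlin. Of the Igkv segments with at least 50 counts compared in the other lines, 4 of 10 in 287 and 3 of 8 in AH47A had the same construct highest. These counts stand beside the 27 of 38 in 621. The largest ratio to the median was 7.43 in 287 and 1.99 in AH47A, against 26.9 in 621. Only 1 segment of 287 and none of AH47A exceeded 4 times the median. Summed minor segments held 10.6% ± 2.79 of Igkv counts in untreated 621, lowest with G280 at 5.43%.

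**Figure D3:**
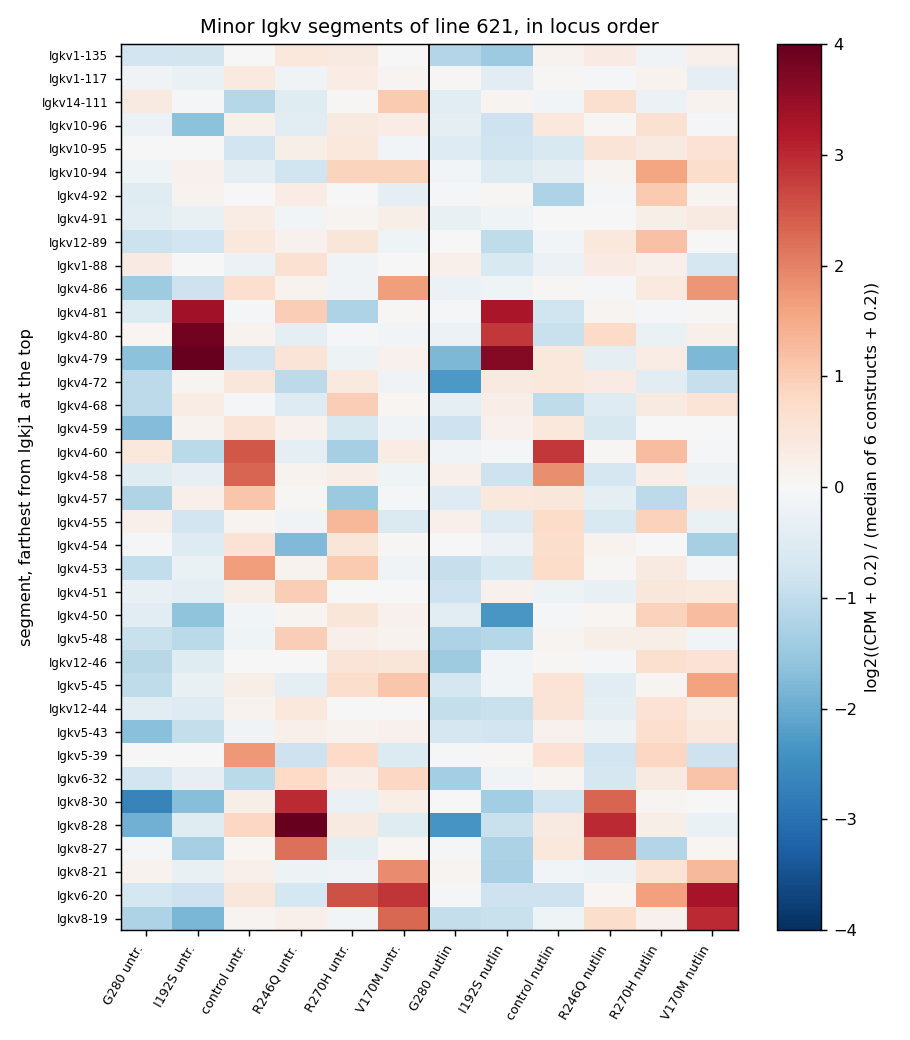
Heat map of 38 minor Igkv segments of 621 with at least 50 counts, in locus order from farthest to nearest to Igkj1, for 12 libraries. Colour is log2((CPM + 0.2) / (median of 6 constructs + 0.2)) within a treatment, limited to 4 either way, and the red blocks of neighbouring segments (Igkv4-81 to Igkv4-79 with I192S, Igkv8-30 to Igkv8-27 with R246Q, Igkv8-21 to Igkv8-19 with V170M) recur on the untreated and the nutlin side.

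In 287, Igkv4-91 differed over constructs. It was at 25.7 CPM with the control and 22.5 CPM with R246Q when untreated, and at 2.42 to 6.85 CPM with the other 4 (edgeR adjusted p = 2.63e-05 within 287). Igkv4-86 had 65 counts with R246Q against 4 to 19 untreated, and 17 against 1 to 6 after nutlin. Iglv1 was lowest at 2.86 CPM with I192S and highest at 17.6 CPM with V170M (edgeR adjusted p = 6.25e-05). In AH47A, where Iglv1 leads, it was at 323 CPM with I192S against 169 to 268 CPM with the others when untreated, and at 257 CPM against 132 to 245.6 CPM after nutlin (edgeR adjusted p = 0.0202 within AH47A).

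The nutlin response was tested in each line as the mean over the 6 constructs, in a model whose construct terms are shared by the lines. Of the 43 members tested, 14 were called in 287, 6 higher and 8 lower. Over all genes 71.9% were called there, 36.2% higher and 35.7% lower. In 621, 6 were called, 1 higher and 5 lower, against 55.0% of all genes, 26.4% higher and 28.6% lower. In AH47A, 4 were called, all lower, against 43.6% of all genes, 21.4% higher and 22.2% lower. The members' shares of 32.6%, 14.0% and 9.3% all lie below these backgrounds. Many members had few counts in a given line. Of those with at least 10 counts in the line, 14 of 30, 6 of 36 and 4 of 19 were called, with a median log2 fold change of -0.51, -0.39 and -0.42. Fitted on the 12 libraries of a line alone, which pairs the libraries of a construct within the line, 16, 9 and 6 of the 43 were called in 287, 621 and AH47A. The share of all genes called in these single-line fits is not given here, so these counts have no background beside them. In the model over all lines, the median log2 fold change of all genes tested was within 0.03 of 0 in each line.

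**Figure D4:**
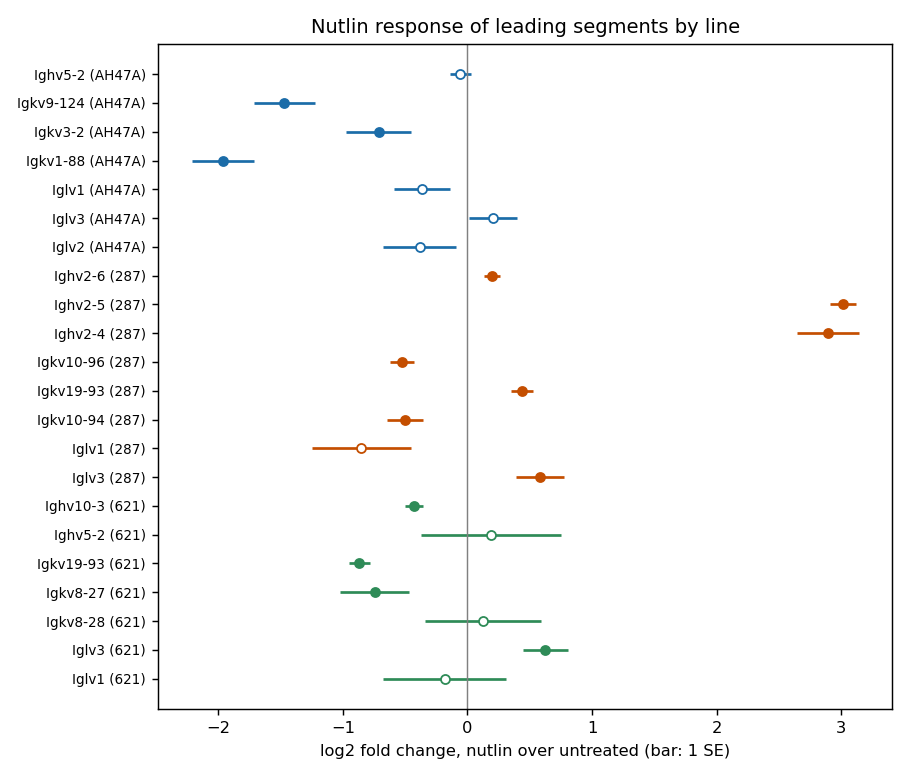
Nutlin response of the segments that rank among the 3 highest of their locus in a line, as log2 fold change with bars of 1 SE, the line in brackets after each name, and filled points where the edgeR adjusted p is under 0.05. Ighv2-5 (3.02) and Ighv2-4 (2.89) in 287 lie far to the right, and Igkv1-88 (-1.96) and Igkv9-124 (-1.47) in AH47A to the left.

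The heavy chain locus of 287 showed the steepest rise. Ighv2-5 was at 9.8 to 14.7 CPM untreated, with a median of 13.2 CPM, and at 79.2 to 123 CPM after nutlin, with a median of 106 CPM. It was higher after nutlin in 6 of 6 constructs, by 3.02 ± 0.10 on the log2 scale (edgeR adjusted p = 2.04e-12). Ighv2-4 rose from 0.93 to 1.65 CPM to 7.17 to 11.3 CPM, also in 6 of 6, by 2.89 ± 0.25 (adjusted p = 3.52e-09). The groups did not overlap for either. Ighv2-6, the leader, was at 269 to 302 CPM and then at 292 to 350 CPM. It was higher in 6 of 6, by 0.20 ± 0.07 (edgeR adjusted p = 0.00974, DESeq2 adjusted p = 0.624), and its groups overlapped.

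Relative to Ighv2-6 in the same libraries, Ighv2-5 was thus higher after nutlin. Its counts were 3.64% to 5.43% of those of Ighv2-6 untreated and 27.1% to 36.4% after nutlin. Ighv2-4 stayed at 10.4% ± 2.6 of Ighv2-5 untreated and 9.48% ± 1.32 after nutlin (SD, n = 6). The 3 segments lie in the same orientation, 287, 256 and 223 kb from the first heavy chain J segment for Ighv2-6, Ighv2-5 and Ighv2-4. How many of the Ighv2-4 counts come from reads shared with Ighv2-5 was not tested. Ighv2-5 had 2 counts in AH47A and 621 together, so no response of it could be measured there.

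The kappa locus of 287 moved both ways. Igkv10-96 fell from 508 to 646 CPM to 325 to 457 CPM, in 6 of 6 constructs, by 0.53 ± 0.10 on the log2 scale (edgeR adjusted p = 2.65e-05). Its near relative Igkv10-94 fell by 0.50 ± 0.14 (adjusted p = 0.00292), and the ratio of the pair stayed at 14.8% ± 1.96 and 15.2% ± 3.35. With DESeq2 neither passed, at adjusted p = 0.254 and 0.454. Igkv19-93 rose from 169 to 238 CPM to 230 to 294 CPM, in 6 of 6, by 0.44 ± 0.09 (edgeR adjusted p = 7.97e-05), and these groups overlapped. Igkv19-93 was thus at 34.8% ± 5.59 of Igkv10-96 counts untreated and at 67.4% ± 10.6 after nutlin, with no overlap.

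Some segments of lower level in 287 also fell. Igkv1-88 was at 23.8 to 45.4 CPM untreated, with a median of 37.0 CPM, and at 2.96 to 9.12 CPM after nutlin. It fell by 2.59 ± 0.15 (edgeR adjusted p = 4.1e-15). Igkv9-124 went from 8.37 to 13.0 CPM to 0.739 to 3.09 CPM and fell by 2.49 ± 0.24 (adjusted p = 1.66e-10). In neither did the groups overlap. Igkv4-92, Igkv4-91 and Igkv10-95 fell by 1.93 ± 0.44, 1.25 ± 0.30 and 1.04 ± 0.21 (edgeR adjusted p from 6.06e-05 to 0.00057). Igkv12-46 and Igkv1-135 were called on few reads. The first had 14 counts untreated and 1 after nutlin, and the second 4 and 30.

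**Figure D5:**
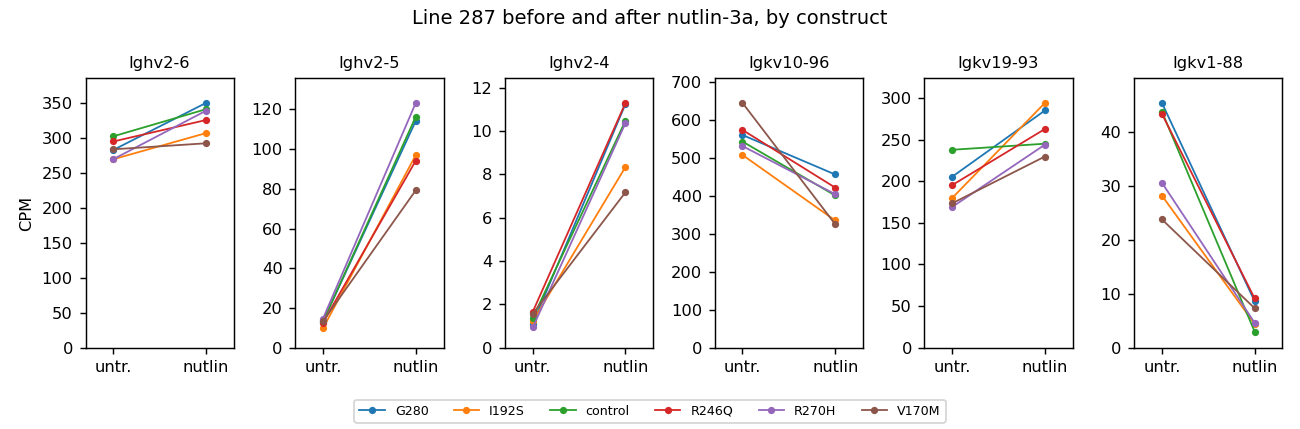
CPM of 6 segments in 287, untreated and after nutlin, with 1 line per construct and a vertical axis from 0 in each panel. Ighv2-5 and Ighv2-4 rise and Igkv10-96 and Igkv1-88 fall in all 6 constructs, and Igkv19-93 rises from a median of 188 to 254 CPM.

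In 621 the leaders fell. Igkv19-93 was at 544 to 690 CPM untreated and at 279 to 424 CPM after nutlin, with no overlap. It was lower in 6 of 6 constructs, by 0.87 ± 0.09 on the log2 scale (edgeR adjusted p = 5.4e-09). Ighv10-3 was at 218 to 258 CPM and then at 158 to 203 CPM, also with no overlap. It fell by 0.43 ± 0.07 (edgeR adjusted p = 2.93e-05, DESeq2 adjusted p = 0.418). Igkv10-95 fell by 0.94 ± 0.29 and Igkv1-88 by 0.54 ± 0.21, the latter in 5 of 6. Igkv8-27 fell by 0.74 ± 0.28 (edgeR adjusted p = 0.0284), a call lost under 5 of 12 alternatives, with adjusted p of 0.217 in DESeq2 and 0.276 without the construct terms. Without R246Q, R270H or V170M the edgeR adjusted p was 0.082, 0.129 or 0.0521.

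In AH47A neither leader was called. Ighv5-2 had a log2 change of -0.06 ± 0.08 (edgeR adjusted p = 0.623), and Iglv1 -0.36 ± 0.22 (adjusted p = 0.207), the latter lower in 6 of 6 constructs. Fitted on the AH47A libraries alone, Iglv1 passed, with an edgeR adjusted p of 0.0179. The segments that fell were low to begin with. Igkv1-88 went from 3.01 to 3.96 CPM to 0.309 to 1.27 CPM and fell by 1.96 ± 0.25 (edgeR adjusted p = 3.38e-07). Igkv9-124 went from 3.32 to 10.2 CPM to 1.39 to 2.98 CPM and fell by 1.47 ± 0.24 (adjusted p = 1.75e-05). Igkv10-95 fell by 1.11 ± 0.32. Igkv3-2 fell by 0.71 ± 0.26 (edgeR adjusted p = 0.0339), a call lost under 6 of 12 alternatives (adjusted p 0.0538 to 0.174).

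Igkv1-88 and Igkv10-95 were each called lower in all 3 lines. The share of all genes called lower in all 3 was not computed. Per line it was 35.7% in 287, 28.6% in 621 and 22.2% in AH47A. A test of the difference between the lines' responses called 6 members, where 60.3% of all genes were called. For Igkv19-93 the directions were opposite in 287 and 621 (edgeR adjusted p = 9.96e-09 for the difference). For Igkv1-88 the fall differed in size (adjusted p = 7.54e-07), being smallest in 621. Igkv9-124 (0.038), Ighv2-4 (0.00742), Igkv12-46 (0.00845) and Igkv1-135 (0.0155) were the others. Each had few counts in at least 1 line, so its response was barely measured there. Igkv9-124 had 9 counts in 621, and Ighv2-4 had 3 in AH47A and 4 in 621. In AH47A, Igkv12-46 had 3 and Igkv1-135 had 8. Of the lambda segments, Iglv3 rose in 287 by 0.58 ± 0.19 (edgeR adjusted p = 0.00795) and in 621 by 0.62 ± 0.18 (adjusted p = 0.00441). In 287 the adjusted p was 0.0621 without the V170M libraries. Iglv1 in 287 was at -0.85 ± 0.40 (edgeR adjusted p = 0.0601), and passed at 0.000184 on the 287 libraries alone. In AH47A Iglv3 changed by 0.21 ± 0.19 (adjusted p = 0.411). The difference between the lines was not called for Iglv3 (edgeR adjusted p = 0.310).

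The share of a leader among the counts of its locus was tested over 6 construct pairs with an exact two-sided sign-flip test, whose smallest p is 0.0312. Ighv2-6 held 93.3% ± 0.47 of Ighv counts in untreated 287 and 73.1% ± 1.8 after nutlin, lower by 20.2 points in 6 of 6. Igkv10-96 held 61.1% ± 4.07 and 52.8% ± 3.35 of Igkv counts, lower in 6 of 6. Igkv19-93 in 621 held 89.4% ± 2.79 and 85.9% ± 3.68, lower in 6 of 6. Each reached the smallest exact p, 0.0312, and 0.0625 after adjustment over the 6 shares tested, so none passed the correction. Ighv5-2, Iglv1 and Ighv10-3 changed by -0.13, -1.09 and -0.14 points (exact p from 0.156 to 0.188, adjusted 0.188). Loci with under 100 V counts in any library, the kappa locus of AH47A and the lambda locus of 287 and 621, were not tested.

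The constant regions and their partners were measured in the same libraries. Ighm rose in 287 by 0.60 ± 0.05 on the log2 scale (edgeR adjusted p = 1.57e-11) and was at -0.01 ± 0.05 in 621, where Ighv10-3 fell. Igkc fell in 621 by 0.72 ± 0.08 and in 287 by 0.33 ± 0.08. Of the 2 heavy chain constant genes tested, 2 rose in 287 and none was called in 621 or AH47A. Of the 4 light chain constant genes tested, 1 rose and 2 fell in 287, 1 fell in 621 and 1 rose in AH47A. Iglc2 was the gene that rose, by 1.35 ± 0.27 in 287 and 1.27 ± 0.29 in AH47A. It is the constant region to which Iglv2 and Iglv3 are mostly joined in mice.

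Other genes of the B cell receptor and its regulation were tested as well. Cd79a and Cd79b, the signalling chains of the B cell receptor, fell in all 3 lines, by 0.96 and 1.11 in 287, 0.85 and 0.58 in 621, and 0.47 and 0.24 in AH47A on the log2 scale. The surrogate light chain genes, which stand in for the light chain in precursor B cells, fell in 4 of 4 in 287. In 621 and AH47A only Vpreb3 was called. Igll1, Vpreb1 and Vpreb2 had 13, 8 and 0 counts in 621, too few to show a response. In AH47A each of these was higher after nutlin in 0 of 6 constructs (edgeR adjusted p from 0.083 to 0.115). Of the 3 octamer binding factors, which act on V promoters, 3 fell in 287 and 2 in 621 and AH47A, with Pou2f2 at -1.76 ± 0.11, -0.65 ± 0.09 and -0.85 ± 0.10. Rag1 rose in 621 by 0.69 ± 0.16 and in 287 by 0.42 ± 0.18, while Rag2 fell by 0.41 ± 0.16 and 1.32 ± 0.19. Among the 6 B lineage markers 5 fell in AH47A, 4 in 287 and 4 in 621, where 1 rose, and of the 4 plasma cell markers tested 3, 4 and 1 fell, with 1 rising in 621. The summed T cell markers were at 4.85 to 6.59 CPM untreated and 14.7 to 21.8 CPM after nutlin in 287, with 1 of 2 tested genes, Zap70, called higher. Of the 3 myeloid markers tested, 2 rose in AH47A, 2 in 287 and 1 in 621. Itgam rose in each line, by 2.05 ± 0.26, 1.43 ± 0.19 and 2.24 ± 0.29. The summed myeloid markers were at 17.2 to 25.0 CPM and then 37.4 to 57.5 CPM in 287, and at 5.61 to 7.79 CPM and then 10.2 to 28.7 CPM in AH47A. In 621 they were at 16.7 to 33.8 CPM and then 23.7 to 43.6 CPM. Adgre1, a macrophage marker, was at 0 in all libraries of 621. The erythroid gene Hbb-b1 fell in 621 by 2.43 ± 0.41, and the 1 fibroblast marker tested fell in 287. Their part in the V segment results was not tested.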

How the data were processed

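Cells were lysed in Trizol, RNA was cleaned on RNeasy columns, and Illumina libraries were prepared (labels' protocols). The deposited values are raw counts of reads per gene, which the authors made with featureCounts after bcl2fastq 1.8.4 on mm10 (GRCm38), per the submitters' processing notes. No source used here states the aligner, the treatment of reads with several matches or the strand setting, so reads of close V relatives can be lost or split. The 36 per-sample tables were identical to the table of the series.

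Counts were tested with edgeR 4.0.16 in R 4.3.3 (TMM, filterByExpr with a minimum count of 10, robust quasi-likelihood fit). The filter kept 12321 genes, 43 of them V segments. The 859 identifiers without a symbol held 0.303% of the counts and stayed in the fit. The model held 6 means of line and treatment, construct, and construct by treatment over 36 libraries, with 20 residual degrees of freedom. Within-line construct tests used the 12 libraries of a line. Benjamini-Hochberg adjustment ran over all genes tested, and a call means an adjusted p under 0.05. Fold changes are log2 ± standard error. P-values measure the spread between these libraries, which may be partly technical. In the main model, whose construct terms the lines share, it includes construct differences particular to a line. The labels name no repeat of a construct within a line, so the spread between repeat cultures was not measured.

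Untreated and nutlin libraries pair through the line and construct their labels name. Deviations from the group means correlated in these pairs with r from 0.097 to 0.493, over 0.1 in 17 of 18. Alternatives were DESeq2 1.42.0, its size factors, scaling without immunoglobulin genes, no filter, no construct block, 1 line at a time, and each construct left out. The code was tested on simulated data. Segments were named where they ranked among the 3 highest of their locus in a line with at least 10 counts (19 segments), and others by a call or as stated. The members, lists and rules were chosen with earlier results of these data known. Coordinates matched by gene number for 89 of 89 members (RefSeq, GRCm38.p6), and sequences by symbol for 89 of 89 (GENCODE M21). Identity was computed with Biopython 1.88.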

Additional observations from a re-analysis of the deposited data

Results flagged for a closer look

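Of 62 groups of 6 libraries examined, 10 had a library far from the others, where chance gives about 1 in 20. In 621, R246Q stood above the rest for Igkv8-27, with 15.53 CPM untreated against 1.15 to 3.42 and 9.38 CPM after nutlin against 0.739 to 2.77. It also did for Igkv8-28, with 21.32 CPM untreated against 0.122 to 1.96 and 13.47 CPM after nutlin against 0.136 to 2.03. The untreated G280 library of 621 was low for Ighv10-3 (218.4 CPM against 244 to 258) and for Iglv3 (4.022 CPM against 6.24 to 7.56). The untreated I192S library of 621 was low for Igkv19-93 (544.5 CPM against 648 to 690.0). In 287, untreated G280 was high for Iglv3 (6.074 CPM against 3.95 to 4.23). Igkv10-96 had a low share of Igkv counts with I192S after nutlin in 287 (46.38% against 52.3% to 55.2%). Igkv19-93 had a high share with G280 after nutlin in 621 (92.79% against 82.7% to 86.4%).

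Responses to nutlin differed between the lines by the F test of edgeR for 4 of the named segments. The adjusted p was 9.96e-09 for Igkv19-93, which rose in 287 and fell in 621. It was 7.536e-07 for Igkv1-88 and 0.03805 for Igkv9-124, which fell most in 287, though Igkv9-124 had 9 counts in 621. For Ighv2-4, which rose in 287 and had few counts elsewhere, it was 0.007423.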

How the results depend on the processing

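Of 264 recomputed log2 fold changes of named segments, 240 kept their direction and their side of the threshold, 16 lost and 4 gained a call, and 4 changed sign. Those were Igkv8-28 in 621, which went from 0.13 to -0.43 without the replicate block, to -0.17 on that line alone and to between -0.022 and 0.32 with a construct left out (negative without V170M), and Ighv5-2 in 621, which went from 0.19 to between -0.14 and 0.44 with a construct left out (negative without the control). None of these was called, and the cause was not tested. In 621, 6 members were called and 3 with DESeq2. The construct effect called 8 members, 13 without a filter (89 tested), 1 with DESeq2 and 3 to 7 with a construct left out. Within AH47A it called 1, within 287 4 and within 621 13, a comparison added after the data had been seen. Without the replicate block, the share changes of Ighv2-6 (-20.2 points) and Igkv10-96 (-8.35 points) in 287 passed (exact adjusted p = 0.00649). In a separate setting, over members with 100 or more counts, the share change of Ighv10-3 in 621 went from -0.14 to 0.0045 points. With 5 pairs the smallest exact p is 0.0625, so shares with a construct left out are values with no test. Without the replicate block Igkv8-27 in 621 lost its call (adjusted p = 0.276), the only named fold change to do so. Low counts limit the minor segments. Shared sequence limits all segments with close relatives, among them Igkv10-96, Igkv10-95, Igkv10-94, Igkv9-124, Ighv2-6, Ighv2-5, Ighv2-4, Iglv1 and Iglv2.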
